A study of Homo sapiens with 6 samples.

Results

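The 39 genes described here code for ATP-dependent chromatin remodelers, out of 16407 genes in the deposited table of C666-1 cells, an established human line from a nasopharyngeal carcinoma. They are subunits of the SWI/SNF complexes, CHD helicases, the ISWI ATPases SMARCA1 and SMARCA5 with their partner BPTF, and the INO80 ATPase. The set does not hold every gene of these families, and ACTB and CHD5 are among those outside it. All 39 were found by symbol. The set was chosen by the measured expression change of DPF2, which was among the clearest rises in this same comparison. The difference between the media in DPF2, and by the same choice in every other member, is therefore given as a description. No p-value is given for a member, and a count of members is read only against the share over all genes.

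RNA was measured after 24 h in medium that lacked serine and glycine and in complete medium, with 3 libraries each, numbered 1 to 3. Both media were minimal essential medium lacking its non-essential amino acids, with 10% dialyzed fetal bovine serum, 4.5 g/L glucose and antibiotic. The complete medium alone held glycine and serine, each at 0.4 mM. All libraries came from the same line, and the labels do not say whether they were separate cultures, so a p-value here reflects library-to-library spread, part or all of which may be technical.

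SWI/SNF complexes, also called BAF, use the ATPase SMARCA4 or SMARCA2 to slide or evict nucleosomes, and a shared core holds the ATPase to the nucleosome. Added subunits define canonical BAF (ARID1A or ARID1B with a DPF protein), polybromo BAF (ARID2, PBRM1, BRD7 and PHF10) and non-canonical BAF (BRD9 with BICRA or BICRAL). DPF2 carries tandem PHD fingers that bind acylated histone tails. CHD proteins carry chromodomains that bind histone methyl marks or DNA, and CHD3 and CHD4 are the ATPases of the NuRD deacetylase complex. ISWI enzymes space nucleosomes evenly, and INO80 remodels nucleosomes that hold the variant histone H2A.Z.

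The libraries without serine and glycine held 16676318 to 17030355 estimated counts, and those of complete medium 16612196 to 16902750. Library 1 stood apart in the medium without serine and glycine: its chi-square per gene against the libraries numbered 2 and 3 was 17 and 19.3, where those numbered 2 and 3 gave 2.72 between them. In complete medium, library 1 gave 13.7 and 9.01 against the other libraries, which gave 4.02 between them. The 7 epithelial markers looked up, as the line is a carcinoma, summed to 1687 to 1952 TPM (transcript abundance corrected for gene length and depth) without serine and glycine and 1821 to 1996 TPM in complete medium, nearly all from KRT8, KRT18 and KRT19. EPCAM was at 10.01 to 11.65 TPM without serine and glycine and 10.13 to 10.86 TPM in complete medium, and TP63 at 1.95 to 2.37 TPM without serine and glycine and 2.05 to 3.06 TPM in complete medium. The other 2 markers were near 0: CDH1 was at 0.05 to 0.21 TPM without serine and glycine and 0.10 to 0.17 TPM in complete medium, and KRT5 was listed at 0 without serine and glycine and at 0 to 0.23 TPM in complete medium. The fibroblast and endothelial markers in the table summed to at most 5.22 and 0.63 TPM in any library. The 2 of 4 leukocyte markers in the table, PTPRC and CD14, summed to 1.23 to 2.19 TPM without serine and glycine and 0.25 to 0.88 TPM in complete medium, nearly all CD14, and their part in the results was not tested.

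DPF2 (NCBI Gene 5977) lies on chromosome 11 at 65333852 to 65354262 of GRCh38, on the plus strand. The 250 bases upstream of its annotated start, chr11:65333602-65333851, are shown because DPF2 is the gene that defined the set. They are from RefSeq on GRCh38.p14, 5′ to 3′ on the plus strand, and capitals mark the motif found.
DPF2 upstream: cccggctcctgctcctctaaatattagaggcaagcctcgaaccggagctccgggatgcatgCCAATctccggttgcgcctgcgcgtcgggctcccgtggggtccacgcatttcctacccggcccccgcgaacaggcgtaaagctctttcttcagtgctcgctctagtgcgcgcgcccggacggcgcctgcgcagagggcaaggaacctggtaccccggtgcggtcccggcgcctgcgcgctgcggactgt

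This window is 67.6% G or C and holds 30 CpG dinucleotides. The letters CCAAT, the box bound by NF-Y, occur once on the printed strand, beginning 189 bases before the start. The same letters on either strand are in 33.0% of 27305 RefSeq windows of that length. The GC box GGGCGG, the E-box CACGTG, the cAMP response element letters TGACG and the ETS core CCGGAA were searched on both strands, with overlaps allowed. None of these was found in the window. The motifs were picked after the values were seen. Of the 39 members, 32 had a window. Their median G and C content was 68.2%, against 65.2% for 10294 tested genes with a window. The GC box was in 22 of the 32, or 68.8%, against 67.8% of the windows of tested genes. CCAAT was in 12 of the 32, or 37.5%, against 35.0%.

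Most members were expressed at moderate to high levels. One of the 39, DPF3, had 1 to 4 counts per library and did not pass the filter on low counts, so 38 were tested. The median level of the 38 was 36.1 TPM without serine and glycine and 34.5 TPM in complete medium, against 23.8 and 23.0 TPM over all 12548 tested genes. Their median coefficient of variation between libraries of a medium was 5.42% and 3.57%, against 7.83% and 6.99% over all tested genes. Without serine and glycine the most abundant members were BRD7, BCL7B, CHD3, SS18 and ACTL6A, at 99.7 to 128.6 TPM. In complete medium they were ACTL6A, BCL7B, BRD7, CHD4 and CHD3, at 107.3 to 144.9 TPM. The lowest were BICRA, DPF1 and DPF3 in both media.

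**Figure D1:**
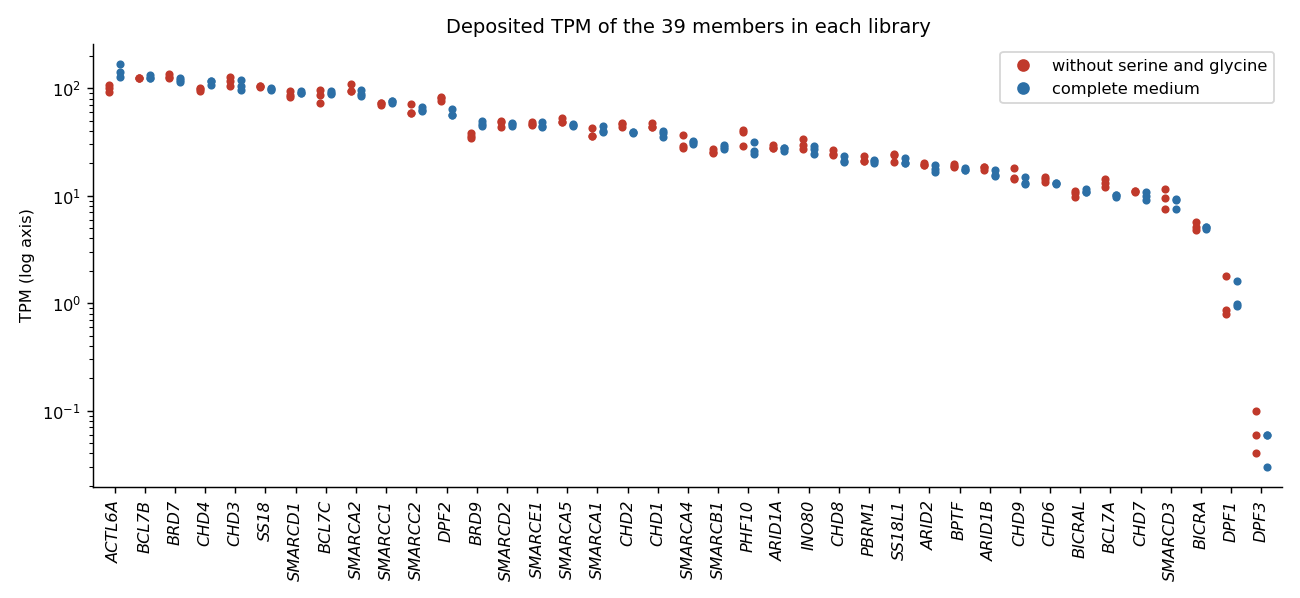
Deposited TPM of each member in each library, on a log axis, ordered by the mean in complete medium (points left of each tick: the 3 libraries without serine and glycine; right: the 3 of complete medium). Most members sit between about 10 and 130 TPM, and DPF1 and DPF3 lie far below the rest in both media.

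By edgeR's quasi-likelihood test, adjusted by Benjamini-Hochberg over all genes tested and called under 0.05, 4 of the 38 tested members were called. DPF2 was higher without serine and glycine, and ACTL6A, BRD9 and CHD4 were lower. This is 10.5% of the members, where 6.95% of all 12548 genes were called (872 genes), 2.73% higher and 4.22% lower. With that share near the background, and in the contrast that chose the set, the count is no result about the members as a group. Of the 38, 22 had a positive and 16 a negative log2 change, and their median log2 change was 0.05, beside 0.00 for all genes tested. The 3 libraries of one medium lay wholly above or below those of the other for 15 of the 38 members, 39.5%, and for 32.6% of all tested genes.

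The calls depended on the libraries used. With the shared replicate number as a block, 11 members were called, 6 higher and 5 lower, where 24.3% of all genes were called, 11.1% higher and 13.2% lower. The 7 added were BCL7A, PHF10, CHD1, CHD2 and CHD8, which were higher, and SMARCA1 and SMARCB1, which were lower. By other scalings and tests on all 6 libraries, 4 members were called with RLE scaling (6.97% of all genes) and by limma voom (6.85%), 3 by limma on log2(FPKM + 0.1) (2.84%), and DPF2 alone on log2(TPM + 1) (0.932%). Without replicate 2 or 3 of the medium lacking serine and glycine, or replicate 2 or 3 of complete medium, edgeR and limma voom called 0 members and 0.0% of all genes. At an unadjusted p under 0.05, edgeR then held 8, 8, 7 and 9 of the 38 members, where it held 22.6%, 20.8%, 17.3% and 19.8% of all genes, and DESeq2 called 3, 4, 3 and 3 members, beside 4.96%, 3.32%, 1.89% and 3.29% of all genes. In each of these 4 fits DESeq2 called DPF2, BRD9 and ACTL6A, and it called CHD4 only without replicate 3 of the medium lacking serine and glycine. Without replicate 1 of the medium lacking serine and glycine, edgeR called 7 members and 14% of all genes, limma voom 6 and 13.6%, and DESeq2 5 and 11.1%. Without replicate 1 of complete medium each of the 3 called 4 members, and 10.5%, 10.3% and 11.8% of all genes. When both libraries numbered 1 were left out, which was decided after seeing the data, 13 members and 29.1% of all genes were called.

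**Figure D2:**
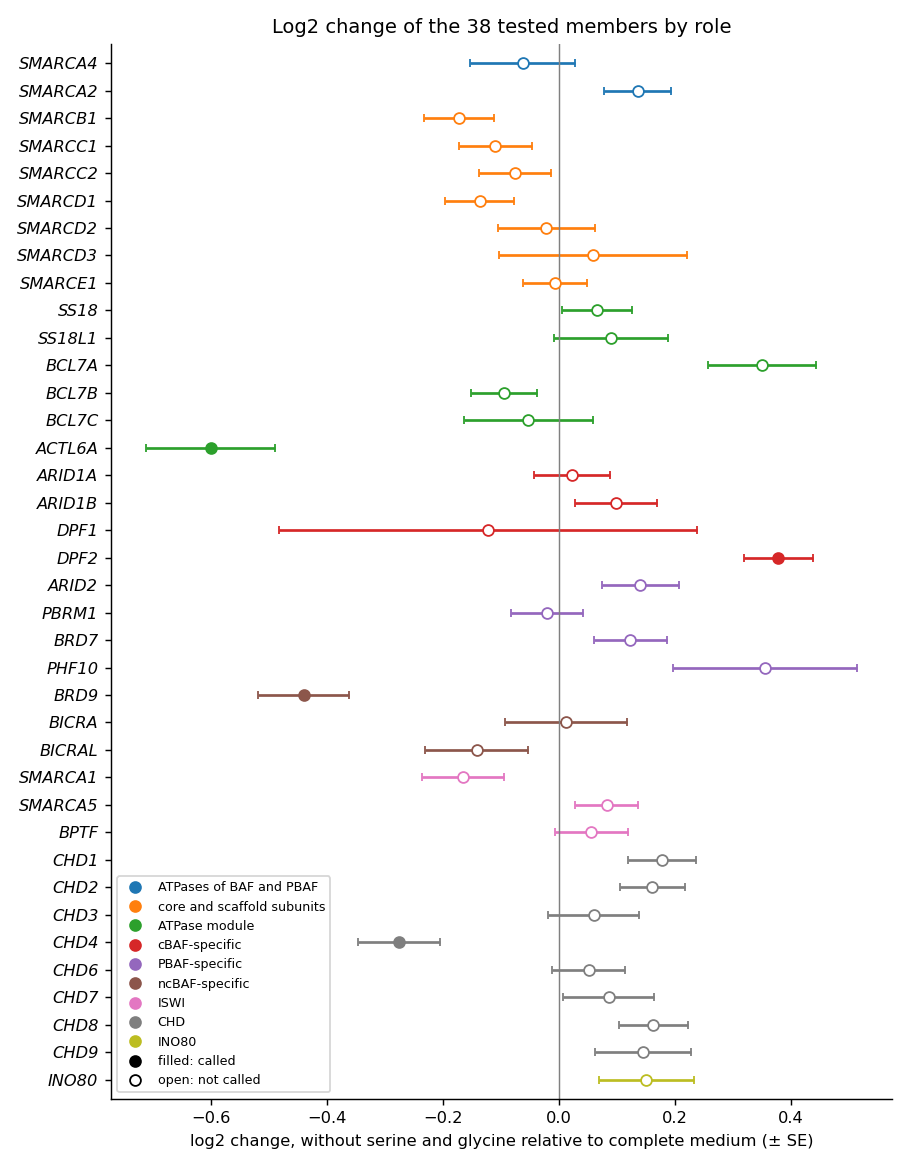
Log2 change of the 38 tested members in medium without serine and glycine over complete medium, with its standard error (SE), coloured by role (filled: called by edgeR at an adjusted p under 0.05; open: not called). DPF2 at 0.38 is the only filled point right of 0, and ACTL6A at -0.60, BRD9 at -0.44 and CHD4 at -0.28 are those left of it.

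Among the subunits of canonical BAF, DPF2 was at 97.6, 93.9 and 99.6 CPM (counts scaled to library size, with TMM factors) in the 3 libraries without serine and glycine, against 77.15, 73.4 and 73.5 CPM in complete medium. All 3 libraries without serine and glycine lay above all 3 of complete medium. In these bulk samples, more cells with the transcript and more transcript per cell cannot be told apart. The means were 97.1 ± 2.87 CPM without serine and glycine and 74.7 ± 2.13 CPM in complete medium (SD, n = 3 each), a log2 change of 0.38 (SE 0.059), or 1.3-fold. The change was 0.36 to 0.40 when any library was left out and 0.40 without both libraries numbered 1. These are the values that chose the set.

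The paralogs of DPF2 did not share its level. DPF1, which joins neuronal BAF, had 30, 15 and 14 counts without serine and glycine and 28, 17 and 18 in complete medium, so its log2 change of -0.12 has an SE of 0.36. Its highest library was replicate 1 in both media. DPF3, a DPF protein known from heart and muscle, had 4, 2 and 2 counts without serine and glycine, against 1, 2 and 2 in complete medium, and no fold is given. PHF10, the related PHD-finger subunit of polybromo BAF, was at 26.4, 38.3 and 39.7 CPM without serine and glycine, against 25.3, 24.8 and 31.5 CPM in complete medium. Replicate 1 of the medium lacking serine and glycine lay within the range of complete medium and the other libraries above it. Its log2 change was 0.35 (SE 0.158), not called, and 0.52 without that replicate 1, where it was called, as it was with the replicate block. PHF10 shares 2459 bases with C6orf120, which had a log2 change of -0.01 (edgeR adjusted p = 0.976). PHF10 counts were whole only in replicate 1 of the medium lacking serine and glycine, so some reads were divided with other genes.

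DPF2 took 68.1 ± 4.11% of the summed TPM of DPF1, DPF2, DPF3 and PHF10 without serine and glycine and 67.4 ± 3.32% in complete medium, so its share of these relatives overlapped between the media. ARID1A and ARID1B, the alternative DNA-binding subunits of canonical BAF, had log2 changes of 0.02 (SE 0.065) and 0.10 (SE 0.070) and were not called. The subunits specific to canonical BAF summed to 127.4 ± 4.36 TPM without serine and glycine and 103.5 ± 6.41 TPM in complete medium. With DPF2 left out the sums were 47.8 ± 1.69 TPM without serine and glycine and 44.4 ± 2.21 TPM in complete medium, and their libraries overlapped.

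None of the 6 genes beside DPF2 was called higher by edgeR. As only 2.73% of all tested genes were called higher, and 4.22% lower, this is no result about the locus. Of the 3 nearest protein-coding genes on each side in the RefSeq table, the 3 before it were CAPN1, POLA2 and CDC42EP2 and the 3 after it TIGD3, FRMD8 and SLC25A45. POLA2, a subunit of the DNA polymerase alpha primase complex, fell to 40.95 ± 5.74 CPM without serine and glycine, against 53.2 ± 2.50 CPM in complete medium (n = 3 each, log2 change -0.38, SE 0.098, edgeR adjusted p = 0.0474). The other 5 had log2 changes of -0.30 to 0.00 and edgeR adjusted p of 0.0561 to 0.994. With the replicate block, CAPN1 and CDC42EP2 were also called lower (edgeR adjusted p = 0.0185 and 0.0444), where 13.2% of all genes were.

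**Figure D3:**
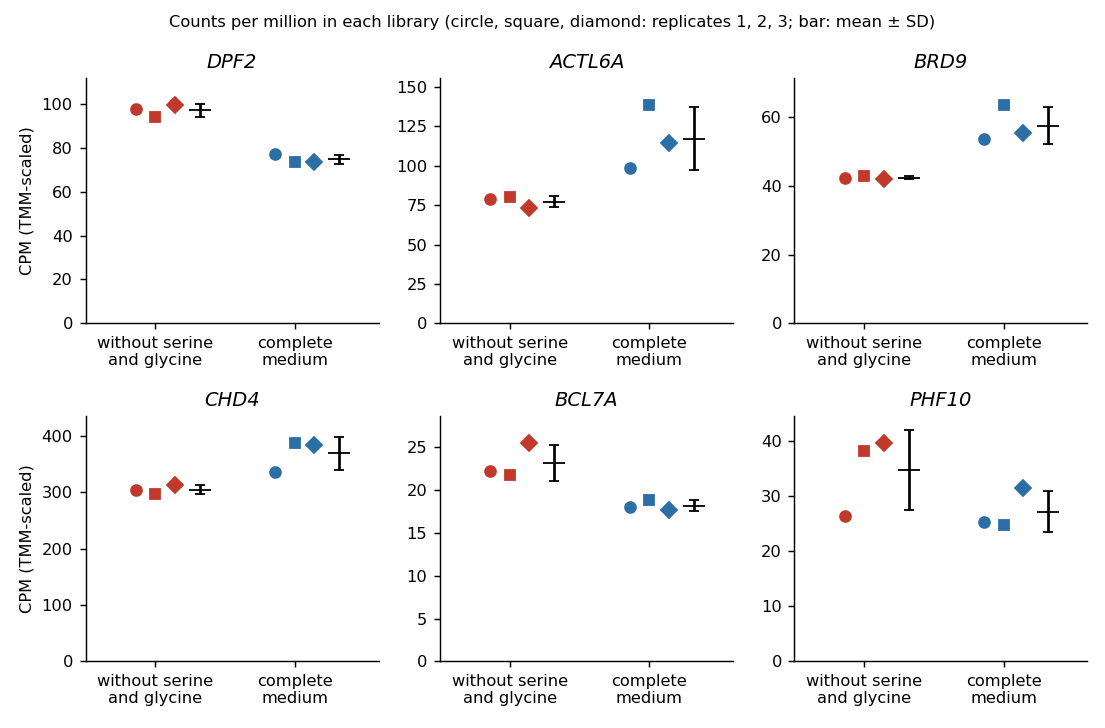
CPM of the 4 called members and of BCL7A and PHF10 in each library, from 0 (circle, square and diamond: replicates 1, 2 and 3; bar: mean ± SD of 3 libraries). For DPF2 the libraries without serine and glycine lie above those of complete medium, for ACTL6A, BRD9 and CHD4 below, and for PHF10 they overlap. BCL7A, with 21.7 CPM or more against 18.9 CPM or less, does not overlap.

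BRD9, the bromodomain subunit that defines non-canonical BAF, had 42.4, 42.85 and 42.1 CPM without serine and glycine, against 53.7, 63.7 and 55.4 CPM in complete medium. The libraries without serine and glycine lay within 1 CPM of each other and below every library of complete medium. Means were 42.4 ± 0.394 CPM without serine and glycine and 57.6 ± 5.35 CPM in complete medium (SD, n = 3 each), a log2 change of -0.44 (SE 0.0785). The other subunits of that complex, BICRA and BICRAL, had log2 changes of 0.01 (SE 0.106) and -0.14 (SE 0.088) and were not called.

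BRD7, the BRD9 relative of polybromo BAF, was at 168.6, 188.9 and 177.9 CPM without serine and glycine, against 166.1, 167.6 and 157.9 CPM in complete medium. Its lowest library without serine and glycine lay 1 CPM above the highest of complete medium, and its log2 change of 0.12 (SE 0.063) was not called. In TPM BRD7 overlapped between the media, with replicate 1 at 124.78 without serine and glycine and 125.73 in complete medium. Its counts were not whole in any library, so some of its reads were divided with other genes. BRD9 took 23.4, 20.9 and 21.3% of the summed TPM of BRD7 and BRD9 without serine and glycine, against 26.9, 29.5 and 27.9% in complete medium. The media did not overlap in this share, which was 6.23 percentage points lower without serine and glycine. The BRD9 gene, on chromosome 5 at 863741 to 892801, lies 83 bases from TRIP13, a mitotic checkpoint ATPase gene that was looked up after the values were seen. TRIP13 was at 68.3 ± 3.06 CPM without serine and glycine and 77.8 ± 4.88 CPM in complete medium (n = 3 each, log2 change -0.19, edgeR adjusted p = 0.119, and 0.0359 with the replicate block).

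The polybromo BAF subunits were not called by edgeR on all 6 libraries without the block. PHF10 was called higher with the block, where 11.1% of all genes were. ARID2, BRD7 and PHF10 were called higher without both libraries numbered 1, where 29.1% of all genes were called in either direction. ARID2, its DNA-binding subunit, had a log2 change of 0.14 (SE 0.066) and PBRM1, which carries several bromodomains, one of -0.02 (SE 0.062). The 4 specific subunits of this complex summed to 206.2 ± 9.30 TPM without serine and glycine and 185.9 ± 5.26 TPM in complete medium, with no overlap. The nearest libraries were at 196.1 TPM without serine and glycine and 191.2 TPM in complete medium. On log2(TPM + 1) the median log2 change of all genes was itself 0.04, and the sums were not corrected for it. The sums of non-canonical BAF were 51.6 ± 1.08 TPM without serine and glycine and 63.0 ± 2.16 TPM in complete medium, also without overlap. With BRD9 left out they were 15.6 ± 0.990 TPM without serine and glycine and 16.2 ± 0.508 TPM in complete medium and overlapped.

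ACTL6A, the actin-like subunit of the ATPase module, is also a subunit of INO80 and TIP60. It was at 78.85, 79.9 and 73.1 CPM without serine and glycine, against 98.5, 138.7 and 114.4 CPM in complete medium. The libraries of complete medium spread widely, yet the lowest of them lay above all those without serine and glycine. Means were 77.3 ± 3.68 CPM without serine and glycine and 117.2 ± 20.2 CPM in complete medium (SD, n = 3 each), a log2 change of -0.60 (SE 0.111), the largest of the 38. Without replicate 2 of complete medium, its highest library, the log2 change was -0.46. The gene lies on chromosome 3 at 179562926 to 179588407, and its last 123 bases overlap MRPL47, which had a log2 change of -0.13 (edgeR adjusted p = 0.322). The labels do not say whether reads kept their strand.

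The rest of the ATPase module was not called by the main test of edgeR. BCL7B, whose transcript was the most abundant of the BCL7 family here, was at 84.15, 88.3 and 88.4 CPM without serine and glycine, against 93.6, 93.0 and 92.1 CPM in complete medium. Its 3 libraries without serine and glycine lay below those of complete medium, by a log2 change of -0.10 (SE 0.057). BCL7A, a rarer member of that family described here after its values were seen, went the other way, with 22.25, 21.7 and 25.5 CPM without serine and glycine, against 18.05, 18.9 and 17.6 CPM in complete medium. All of its libraries without serine and glycine lay above those of complete medium, with a log2 change of 0.35 (SE 0.093).

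BCL7A was not called by the main test. It was called with the replicate block, with libraries scaled by their totals, with no filter on low counts and by DESeq2. With these last 3 settings 5 members were called, 2 higher and 3 lower, where 7.04%, 6.61% and 9.87% of all genes were called. Its share of the TPM of the BCL7 genes was 5.94 ± 0.592% without serine and glycine and 4.39 ± 0.0557% in complete medium. SS18 and SS18L1, which bridge the ATPase to the complex, had log2 changes of 0.07 (SE 0.061) and 0.09 (SE 0.099).

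SMARCA2 and SMARCA4, the alternative ATPases, were unequal in level. SMARCA2 was at 99.65 ± 8.57 TPM without serine and glycine and 89.9 ± 5.26 TPM in complete medium, and SMARCA4 at 31.1 ± 4.95 TPM without serine and glycine and 31.2 ± 1.07 TPM in complete medium. SMARCA2 thus took 76.3 ± 1.28% of their summed TPM without serine and glycine and 74.2 ± 1.76% in complete medium. The shares of the media overlapped. In CPM, SMARCA2 was at 221.1, 213.1 and 208.3 without serine and glycine, against 192.7, 191.3 and 201.2 in complete medium, with no overlap and a log2 change of 0.14 (SE 0.057) that was not called. SMARCA4 had a log2 change of -0.06 (SE 0.090). It was -0.17 without replicate 1 of the medium lacking serine and glycine, its highest library at 94.05 CPM, and 0.00 without replicate 3 of that medium. It was called lower without both libraries numbered 1, with a log2 change of -0.19.

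Core and scaffold subunits had changes of less than 0.2 on the log2 scale, and 0 of 7 were called by the main test of edgeR or by DESeq2. By edgeR 2 were at an unadjusted p under 0.05, where 27.3% of all genes were. Log2 changes were negative for 6 of the 7, all but SMARCD3, and for 4 when libraries were scaled by their totals. SMARCB1, SMARCC1, SMARCC2 and SMARCD1 were negative under every scaling tried. SMARCB1, the core subunit lost in rhabdoid tumours, had a log2 change of -0.17 (SE 0.061) and no overlap between the media, and of the settings tried it was called lower only with the block. It shares 3507 bases with DERL3. SMARCD1, the most abundant core subunit by TPM, was at 113.2, 120.7 and 119.9 CPM without serine and glycine, against 124.1, 132.6 and 132.2 CPM in complete medium, a log2 change of -0.14 (SE 0.0595). SMARCE1 differed least, with a log2 change of -0.01 (SE 0.055).

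**Figure D4:**
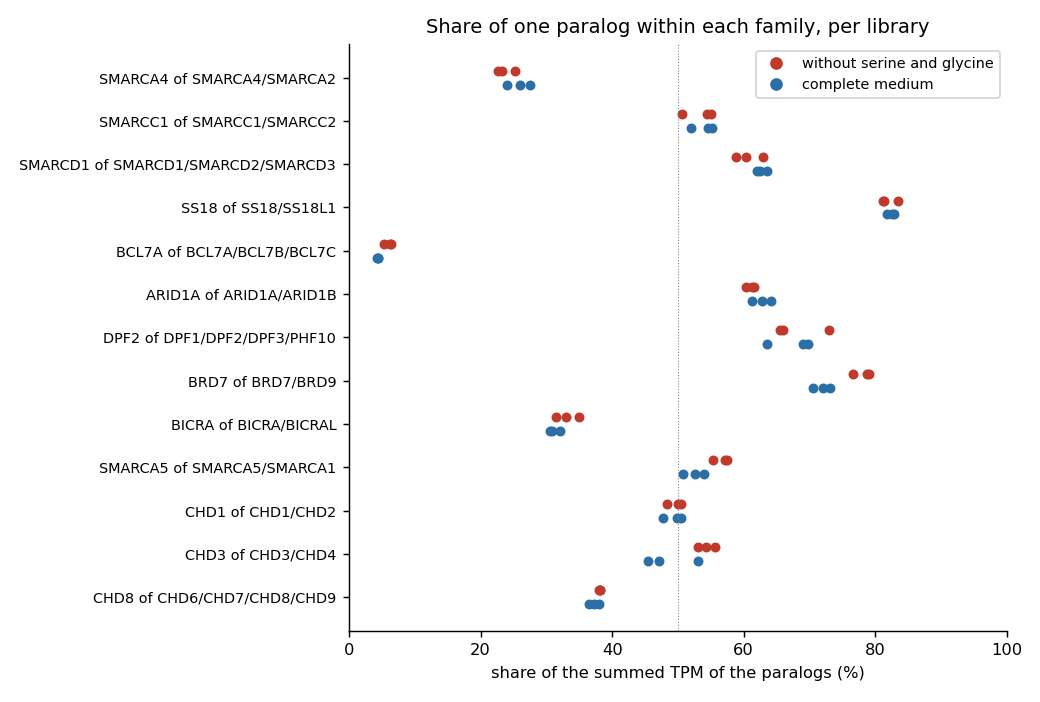
Share of 1 paralog in the summed TPM of its family in each library (upper row of each family: the 3 libraries without serine and glycine; lower row: the 3 of complete medium; dotted line: 50%). BRD7, SMARCA5 and BCL7A show shares that do not overlap between the media, and SMARCA4 stays near 25% in both.

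Of the 8 CHD genes of the set, 7 had a positive log2 change and CHD4 a negative one, where 49.8% of all tested genes were positive. The split was the same under each scaling tried. A change of scaling moves all genes by nearly the same amount, so it could hardly alter the split. The changes of CHD3 and CHD6 were smaller than their SE. CHD4 was at 304.7, 297.3 and 312.5 CPM without serine and glycine, against 336.0, 388.3 and 383.3 CPM in complete medium. All libraries of complete medium were higher, of which replicate 1 was nearest. Means were 304.8 ± 7.57 CPM without serine and glycine and 369.2 ± 28.9 CPM in complete medium (SD, n = 3 each), a log2 change of -0.28 (SE 0.071). The antisense gene CHD4-AS1, which shares 14670 bases with it, was not analysed here. By limma on log2(FPKM + 1), 3 members were called where 2.71% of all genes were, and CHD4 was not among them. DESeq2 did not call it without replicate 2 of the medium lacking serine and glycine, nor without replicate 2 or 3 of complete medium.

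CHD3, the alternative NuRD ATPase, was at 421.3, 369.4 and 405.8 CPM without serine and glycine, against 416.0, 356.5 and 375.8 CPM in complete medium. These ranges overlapped, with replicate 1 the highest in each medium and a log2 change of 0.06 (SE 0.079). CHD4 took 44.3, 47.0 and 45.7% of the summed TPM of CHD3 and CHD4 without serine and glycine, against 46.9, 54.5 and 52.9% in complete medium, and replicate 1 of complete medium lay inside the range of the other medium. CHD1 and CHD2, which are tied to transcribing polymerase, had log2 changes of 0.18 (SE 0.058) and 0.16 (SE 0.057). CHD8, a regulator studied in neurodevelopment, had one of 0.16 (SE 0.060). The media did not overlap for CHD1, CHD2 and CHD8, which lay higher without serine and glycine, as did 16.1% of all tested genes. The 3 were called higher with the block, where 11.1% of all genes were. They were also called higher without both libraries numbered 1, where 29.1% of all genes were called in either direction. CHD6, CHD7 and CHD9 had log2 changes of 0.05 to 0.14 and overlapped.

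SMARCA5, the broadly expressed ISWI ATPase, was at 191.4, 183.6 and 186.3 CPM without serine and glycine, against 174.4, 177.3 and 178.6 CPM in complete medium. These values did not overlap, with a log2 change of 0.08 (SE 0.054). SMARCA1, its paralog on the X chromosome, had a log2 change of -0.17 (SE 0.071), and the media overlapped in its CPM. It was called lower with the block, without replicate 1 of the medium lacking serine and glycine, and without both libraries numbered 1. SMARCA5 took 56.7 ± 1.10% of their summed TPM without serine and glycine and 52.5 ± 1.55% in complete medium, with no overlap. BPTF, the large subunit of the NURF form of ISWI, had a log2 change of 0.06 (SE 0.063). INO80 was at 90.4, 82.1 and 74.96 CPM without serine and glycine, against 78.6, 69.2 and 75.2 CPM in complete medium, and the media overlapped. Over all 13 paralog families, 3 held a share that did not overlap between the media. These were BRD7 with BRD9 and SMARCA5 with SMARCA1, where each share is the complement of the other, and the BCL7 family, by BCL7A. The share of other gene families that would do so was not computed.

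The table also allowed a check on transcript form. The ratio of a gene's counts to its FPKM (fragments scaled by gene length and depth) gives, up to a constant of the library, the mean length of the transcripts that the counter assigned. For 33 members at 5 FPKM or more in every library, the median absolute difference in this length between the media was 0.191%, against 0.282% over 8527 such genes. The media did not overlap for 3 of the 33, BRD7, BCL7A and CHD8, or 9.09%, where 11.7% of all such genes did not. BRD7 differed most, at 104.0, 102.0 and 101.9% of its geometric mean without serine and glycine, against 97.1, 98.2 and 97.0% in complete medium. The difference of 5.31% was larger than that of 96.7% of the genes. For DPF2 the difference was -0.0192%, and the media overlapped.

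Partner genes were called about as often as all genes. Of 97 tested genes outside the set, in 7 lists of partner subunits, other SNF2 ATPases and Polycomb proteins, edgeR, adjusted over all genes, called 3 higher and 4 lower, 7.22% in all, beside the 6.95% over all genes. With the replicate block 13 were higher and 15 lower, where 24.3% of all genes were called. Their median log2 change was 0.02. Without replicate 2 or 3 of the medium lacking serine and glycine, or replicate 2 or 3 of complete medium, edgeR called 0 of them. It then held 22, 23, 14 and 21 of the 97 at an unadjusted p under 0.05, where it held 22.6%, 20.8%, 17.3% and 19.8% of all genes. DESeq2 called 7, 6, 3 and 4, beside 4.96%, 3.32%, 1.89% and 3.29% of all genes. PHC3, RUVBL2 and ACTB were among those DESeq2 called in each of these 4 fits.

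Polycomb proteins, which silence genes and oppose BAF, held 4 of the 7 calls. That is 14.8% of the 27 tested, where edgeR called 6.95% of all genes. PHC3, a subunit of Polycomb repressive complex 1, was at 116.0, 120.2 and 131.1 CPM without serine and glycine, against 88.7, 93.4 and 97.2 CPM in complete medium, and it rose by 0.40 on the log2 scale (SE 0.068, edgeR adjusted p = 0.0217). CBX7 and CBX6, chromobox readers of histone H3 methylation, rose by 0.43 and 0.35 (edgeR adjusted p = 0.0428 and 0.0437). EED, a core subunit of Polycomb repressive complex 2, fell to 36.3 ± 2.22 CPM without serine and glycine, against 46.1 ± 3.76 CPM in complete medium (n = 3 each, log2 change -0.35, edgeR adjusted p = 0.0403). The list's median log2 change was 0.06. With the replicate block 7 of the list were called higher and 1 lower, where 11.1% of all genes were called higher and 13.2% lower. Without replicate 2 or 3 of complete medium, DESeq2 called PHC3 but none of CBX6, CBX7 and EED.

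RUVBL2, an AAA ATPase of the INO80, SRCAP and TIP60 complexes, was at 87.4, 85.05 and 83.8 CPM without serine and glycine, against 104.5, 121.3 and 110.2 CPM in complete medium. It fell by 0.39 on the log2 scale (SE 0.068, edgeR adjusted p = 0.0221). RUVBL2 was the 1 call among 19 INO80 and SRCAP subunits, 5.26% beside 6.95% of all genes. Of these subunits the replicate block called 1 higher and 6 lower, where it called 11.1% of all genes higher and 13.2% lower. ACTB, the actin that pairs with ACTL6A inside BAF and the main cytoskeletal actin, fell to 2423 ± 171 CPM without serine and glycine, against 3066 ± 165 CPM in complete medium (n = 3 each, log2 change -0.34, edgeR adjusted p = 0.0437). ACTB was the 1 call among 6 tested genes of the list of other BAF-associated and double PHD genes, 16.7% beside 6.95% of all genes. With the replicate block 0 of that list were called higher and 2 lower, ACTB and KAT6B, beside 11.1% and 13.2% of all genes. C17orf49, a small protein found with NURF, fell by 0.74 on the log2 scale (SE 0.144, edgeR adjusted p = 0.025). Its means were 8.16 ± 1.21 CPM without serine and glycine and 13.6 ± 1.64 CPM in complete medium. It was the 1 call among 9 ISWI partners, 11.1% beside 6.95% of all genes. Of these partners the replicate block called 3 higher and 2 lower, beside 11.1% and 13.2% of all genes. Of the 12 NuRD partners of CHD4, 11 TIP60 subunits and 14 other SNF2 ATPases, edgeR called 0. It held 1, 2 and 4 of them at an unadjusted p under 0.05, where it held 27.3% of all genes. With the replicate block it called 2 NuRD partners higher, and 1 TIP60 subunit and 3 SNF2 ATPases lower, beside the same shares of all genes. DESeq2 called 1 gene of these lists, the recombination ATPase RAD54L, beside 9.87% of all genes. RAD54L was singled out once its values were known.

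**Figure D5:**
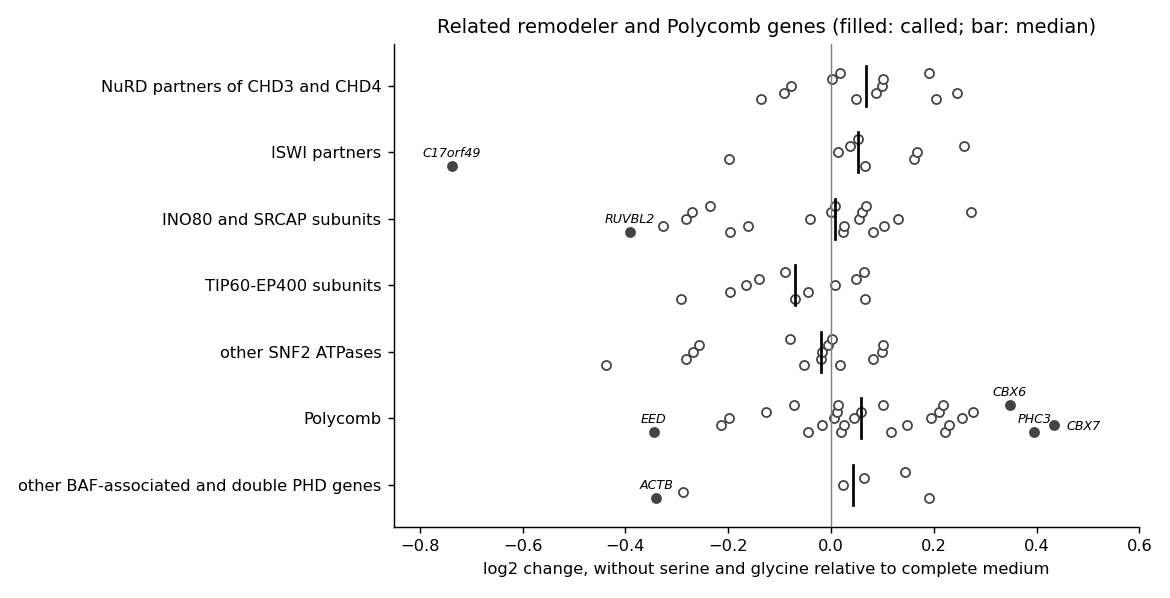
Log2 change of the tested partner and Polycomb genes by list, medium without serine and glycine over complete medium (filled: called by edgeR; bar: median of the list). The 7 filled points are C17orf49, RUVBL2, EED and ACTB left of 0 and CBX6, PHC3 and CBX7 right of it, and the medians lie between -0.07 and 0.07.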

How the data were processed

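The authors deposited expected counts, FPKM and TPM per gene for 6 mRNA libraries, 3 per medium. RSEM 1.3.1, Bowtie2 2.3.4.3 and the GRCh38 build are named, per the submitters' processing notes, without saying what each did. No source used here names the annotation. The authors' expected counts are estimates that divide reads between similar genes, so close paralogs are uncertain, and 15.2 to 16.0% per library were not whole. The authors' FPKM and TPM values correct for gene length and depth, and were used for levels between genes.

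Rounded expected counts went into the two-sided robust quasi-likelihood test of edgeR 4.0.16 under R 4.3.3, with TMM scaling. Genes needed 10 counts by filterByExpr, and 15 in total, which left 12548. The SE is the absolute log2 change divided by the square root of F. The fit was tested on simulated counts. DESeq2 1.42.0 and limma 3.58.1 were alternatives.

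Deviations from group means correlated at 0.326, 0.141 and 0.190 between libraries of the same number, each over the minimum of 0.1 for pairing. One pair of different numbers gave 0.163. The labels do not say what a number marks. Results of the blocked fit stand beside those calls that it changes.

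Members and gene lists were chosen with earlier results of these data known. By rule, values per library are given for DPF2, its family, called members and the most abundant member of each role. Other members are named for their log2 change, and up to 4 called genes of each list and the neighbours of DPF2 are named. Outside this rule, after values were seen, came per-library values of BCL7A, BRD9's neighbour TRIP13, RAD54L and the genes that overlap a member. All 39 members matched the RefSeq gene table by NCBI Gene number and symbol.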

Additional observations from a re-analysis of the deposited data

How the results depend on the processing

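DPF2, ACTL6A, BRD9 and CHD4 kept the direction of their log2 change under each other scaling, filter and test. With their media not overlapping, leaving out 1 library could not turn it. Of 608 log2 changes of members under an alternative, 588 moved by less than the SD between replicates and 20 by more. All 91 recomputed paralog shares moved by less than that. The counts of calls moved most. Over all genes, 872 were called, against 340 by limma on log2(FPKM + 1), 356 on log2(FPKM + 0.1), 117 on log2(TPM + 1), 3044 with the replicate block, 3650 without both libraries numbered 1, and 0 to 1752 when 1 library was left out. Members called were 4, against 1 on log2(TPM + 1), 11 with the replicate block, 13 without both libraries numbered 1, and 0 to 7 with 1 library left out. Partner and Polycomb genes called were 7, against 3 on log2(FPKM + 1) and on log2(FPKM + 0.1), 1 on log2(TPM + 1), 28 with the replicate block, 37 without both libraries numbered 1, and 0 to 18 with 1 library left out. The median log2 change of the members was 0.05, against 0.10 on log2(TPM + 1), where the median of all genes was 0.04, and 0.01 to 0.0634 with 1 library left out. The cause of these differences was not tested. The replicate block changed no other member's call than the 7 named above. Depth limits DPF1 and DPF3.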
